A study of Mus musculus with 6 samples.

Results

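The mitochondrial ribosomal protein genes of mouse Ba/F3 cells were described in clones expressing wild-type (WT) or R98S mutant human RPL10. The 77 genes were every row of the deposited mRNA table whose symbol starts with Mrpl or Mrps and a digit, with 4 pseudogene rows left out, among 41255 genes listed. By symbol, 48 were large subunit (Mrpl) genes and 29 were small subunit (Mrps) genes. After genes with a mean normalized read count under 10 were set aside, 11550 genes were tested, and they held 76 of the 77 members. The exception was Mrpl53, a large subunit gene with a normalized read count of 5.12, 4.30 and 1 in the WT clones and 0.938, 0 and 1.85 in the R98S clones. These counts stood for at most 5 reads a library, and the whole length of Mrpl53 lies within the exons of an overlapping gene on the same strand, so no comparison was made for it.

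Mitochondria carry their own ribosome, which translates only the few mRNAs of the mitochondrial genome, all for subunits of the respiratory chain and the ATP synthase. Its ribosomal RNAs come from mitochondrial DNA, whereas its proteins are encoded in the nucleus, made on cytosolic ribosomes and imported. Part of these proteins descend from bacterial ribosomal proteins, and the rest were added in the mitochondrial lineage.

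Ba/F3 is an interleukin-3 dependent mouse lymphoid line. The comparison asked how mRNA levels differ when the cytosolic ribosome carries RPL10 R98S, a mutation found in T-cell leukemia. Each library came from 1 monoclonal culture that had received a human RPL10 cDNA by retroviral transfer, WT in clones 28, 29 and 36 and R98S in clones 11, 13 and 35. All 6 cultures also carried an shRNA against mouse Rpl10, were chosen for strong knockdown, and were exposed to cycloheximide at 100 µg/ml for 5 min before harvest. No clone without transgene and knockdown was analysed here, and effects of single-cell cloning cannot be told apart from those of the transgene within any 1 clone. The 6 libraries held 21786776 to 24204991 reads on genes, so that 3 reads corresponded to a normalized read count of 2.78 to 3.22. Ptprc, Csf2rb, Csf2rb2, Il3ra, Cd79a and Cd79b were expressed, whereas the B-lineage genes Vpreb1, Igll1, Ebf1 and Pax5 had a mean under 10. The 6 expressed markers were not equal between groups: 3 were called higher and 1 lower in R98S clones. Their log2 fold changes ran from -1.33 to 1.22. Of 5 T-cell markers, 4 had a mean under 10, and the summed count of the list was 13.97 to 65.1 in WT and 46.95 to 92.9 in R98S clones, where Cd3d was the member called higher. Of 4 erythroid markers, 3 had a mean under 10 and 1 was at 0 in all libraries. Their sum was 11.8 to 73.1 in WT and 2.78 to 12.3 in R98S clones, and the 1 tested was called lower (log2 -3.52). The 6 myeloid and mast cell markers, 4 with a mean under 10, summed to 54.3 to 142 in WT and 43.9 to 449 in R98S clones. In R98S clone 35 most of it was Cpa3, a mast cell protease, at 389. The part of these traces in the results below was not tested.

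Most mitoribosomal protein mRNAs were slightly more abundant in the R98S clones. Of the 76 members tested, 68 (89.5%) had a positive log2 fold change (R98S minus WT), compared with 49.1% of all tested genes. The median log2 fold change was 0.21 over the members and -0.01 over all tested genes. Among genes of like abundance, with a mean normalized read count of 280 to 3000, 66 of 74 members were positive with a median of 0.20, whereas 47.6% of 6641 genes were positive with a median of -0.02. RNA came from whole cultures, so more cells with a transcript and more RNA per cell cannot be told apart. Most members did not pass the test gene by gene. With limma and Benjamini-Hochberg adjustment over all tested genes, 16 of 76 members (21.1%) were called at an adjusted p under 0.1, against 23.9% of all tested genes. The share of members called was thus near the background, and the direction differed: 14 members (18.4%) rose, against 10.7% of all tested genes, and 2 (2.63%) fell, against 13.1%. In 40 members (52.6%) the values of the 3 R98S clones did not overlap those of the 3 WT clones, 37 above and 3 below, compared with 37.3% of all tested genes. A median 95% interval of ±0.29 on the log2 scale surrounded the members' fold changes.

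The count tests gave similar numbers. They used the whole reads recovered from the deposited values. edgeR called 20 of 76 members against a background of 23.8%, and DESeq2 called 21 of 76 against 26.9%. Both shares lay slightly above the background, whereas the share called by limma lay slightly below its own. Both sets included all 16 members called by limma. R98S clone 11 had the highest value of the 6 libraries for 32 members, clone 13 for 22 and clone 35 for 18, while WT clones 29 and 36 had it for 2 each and WT clone 28 for 0. WT clone 36 had the lowest value for 35 members. Averaged over the 76 members, the deviation from the mean of the 6 libraries was -0.08, -0.09 and -0.16 in WT clones (28, 29, 36) compared with 0.15, 0.08 and 0.09 in R98S clones (11, 13, 35) on the log2 scale, and the groups did not overlap.

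**Figure D1:**
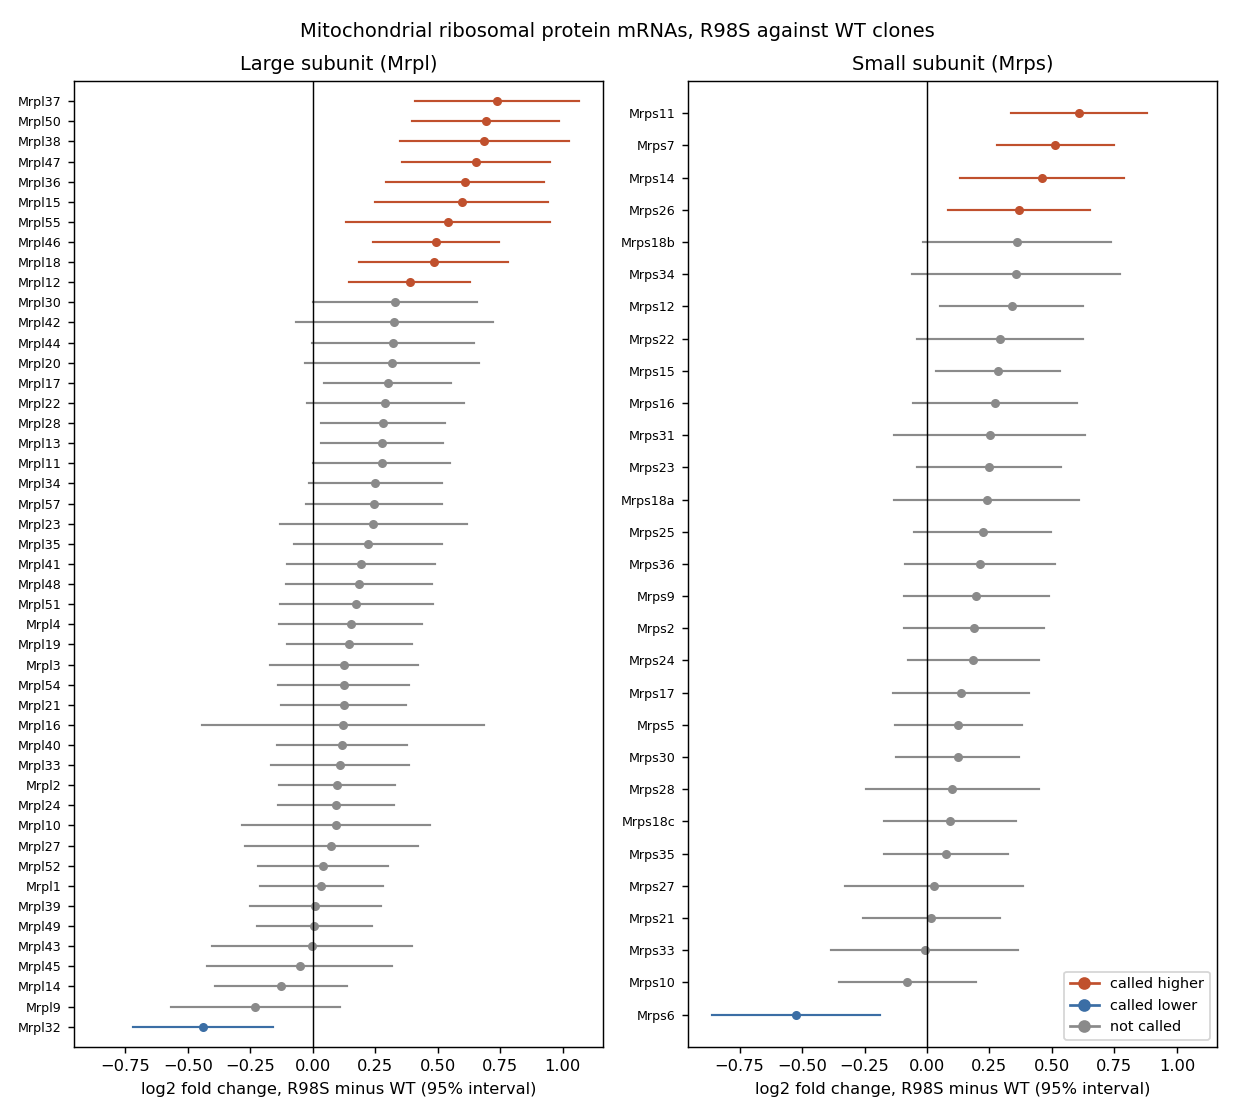
Log2 fold change (x axis, R98S minus WT, with 95% interval) of the 47 large subunit genes and the 29 small subunit genes tested, sorted by size, with the 14 members called higher in red, the 2 called lower in blue and the 60 not called in grey. Estimates run from -0.52 for Mrps6 to 0.74 for Mrpl37, and 68 of the 76 lie above 0.

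Among the large subunit genes, 10 of 47 (21.3%) rose and 1 (2.13%) fell, against 10.7% and 13.1% of all tested genes. The median log2 fold change was 0.19. The central protuberance, a knob at the top of the large subunit that faces the head of the small one, is built in mitochondria from Mrpl18, Mrpl27 and a set of mitochondria-specific proteins. All 6 genes listed for it had a positive log2 fold change, with a median of 0.33, and 3 of them rose. Over all members 89.5% were positive and 18.4% rose, and over all tested genes 49.1% and 10.7%. After the median deviation of the 30 nearest tested genes was subtracted in each library, 4 of the 6 were positive and the median was 0.17. Mrpl27 and Mrpl48 were then at -0.12 and -0.08, and Mrpl46 lost its call (log2 0.21, limma adjusted p = 0.177). For Mrpl38, WT clones 28, 29 and 36 gave normalized read counts of 615, 701 and 587, and R98S clones 11, 13 and 35 gave 889, 1200 and 992. Values follow this clone order throughout. Every R98S clone lay above every WT clone, a 1.62-fold difference (log2 0.69, SE 0.15, limma adjusted p = 0.0213). Mrpl46 was at 742, 703 and 686 in WT and 1029, 963 and 1007 in R98S clones, which formed narrow groups that did not overlap. Its difference was 1.41-fold (log2 0.49, SE 0.11, limma adjusted p = 0.0239). Mrpl18, which has a bacterial counterpart, was at 1403, 1354 and 1433 in WT and 2288, 1691 and 1926 in R98S clones. The groups were apart, with clone 11 the highest, and the difference was 1.41-fold (log2 0.48, SE 0.13, limma adjusted p = 0.0423).

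The member with the highest fold change was Mrpl37, a mitochondria-specific large subunit protein. It was at 866, 919 and 1108 in the WT clones and 1676, 1387 and 1761 in the R98S clones, with no overlap. The difference was 1.67-fold (log2 0.74, SE 0.14, limma adjusted p = 0.0153). Mrpl50, also specific to mitochondria, was at 1396, 1514 and 1256 in WT and 2553, 2030 and 2162 in R98S clones. Again all R98S values were above all WT values (1.62-fold, log2 0.69, SE 0.13, limma adjusted p = 0.0131). Mrpl55, a large subunit gene left unclassed here, had lower and more scattered counts, 353, 288 and 319 in WT and 379, 551 and 479 in R98S clones, with clone 11 close to the WT range. The difference was 1.47-fold (log2 0.54, SE 0.18), and the adjusted p by limma was 0.0776. Of the 18 tested genes listed as mitochondria-specific in the large subunit, Mrps30 included, 4 rose (Mrpl37, Mrpl38, Mrpl46 and Mrpl50) and the median was 0.18. These were 22.2% of the list, while 10.7% of all tested genes rose.

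The remaining large subunit genes that rose have bacterial counterparts. Mrpl47 encodes a protein at the exit of the tunnel through which the nascent chain leaves, and had 597, 531 and 537 normalized counts in WT and 974, 848 and 807 in R98S clones. No values overlapped (1.58-fold, log2 0.66, SE 0.13, limma adjusted p = 0.0162). It was the 1 gene of 8 tunnel exit genes (12.5%) to pass the test, against 23.9% of all tested genes. The median of those 8 was 0.27. With the shift of neighbouring genes subtracted the median was 0.12, Mrpl23 moved from 0.24 to -0.05, and Mrpl44 (0.35) and Mrpl45 (-0.31) passed the threshold beside Mrpl47 (limma adjusted p = 0.0732 and 0.082). Mrpl36, a small protein of the large subunit core, was at 1017, 953 and 960 in WT and 1741, 1258 and 1506 in R98S clones. Clone 13 was the lowest R98S clone and still above the WT range (1.54-fold, log2 0.61, SE 0.14, limma adjusted p = 0.0252). Mrpl15 was at 1190, 1249 and 1088 in WT and 2025, 1927 and 1432 in R98S clones, where clone 35 was closest to WT (1.53-fold, log2 0.60, SE 0.15, limma adjusted p = 0.0348). Mrpl12 forms the flexible stalk that recruits translation factors and has also been described as a partner of the mitochondrial RNA polymerase. It was at 1642, 1573 and 1420 in WT and 2061, 2082 and 1915 in R98S clones, 1.31-fold higher without overlap (log2 0.39, SE 0.11, limma adjusted p = 0.0446). It was the called gene among 3 tested stalk genes, whose median was 0.28. With the shift of neighbouring genes subtracted 0 of the 3 were called, 2 were positive and the median was 0.23. Mrpl12 was then at 0.25 (limma adjusted p = 0.167) and Mrpl10 at -0.13. Of the 29 large subunit genes with bacterial counterparts, 5 (17.2%) rose and 1 (3.45%) fell, with a median of 0.22. Over all tested genes 10.7% rose and 13.1% fell.

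Mrpl32 was the large subunit gene that fell. Its protein is matured by the m-AAA protease of the inner membrane before it joins the ribosome. Counts were 708, 703 and 762 in WT and 576, 504 and 524 in R98S clones, so that all R98S clones lay below all WT clones. The R98S mean was 0.738 times the WT mean (log2 -0.44, SE 0.12, limma adjusted p = 0.0475). The surrounding genes were lower too: the 30 nearest tested genes on chromosome 13 had a median log2 difference of -0.46 between the groups, and with that shift removed Mrpl32 was at 0.02 (limma adjusted p = 0.931). Afg3l2, a subunit of the m-AAA protease, was also called lower (log2 -0.37, SE 0.11, limma adjusted p = 0.0513). It too lost the call with the shift of its neighbours removed (log2 -0.23, limma adjusted p = 0.151), and when WT clone 28, 29 or 36 or R98S clone 11 was left out (limma adjusted p = 0.112 to 0.143).

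**Figure D2:**
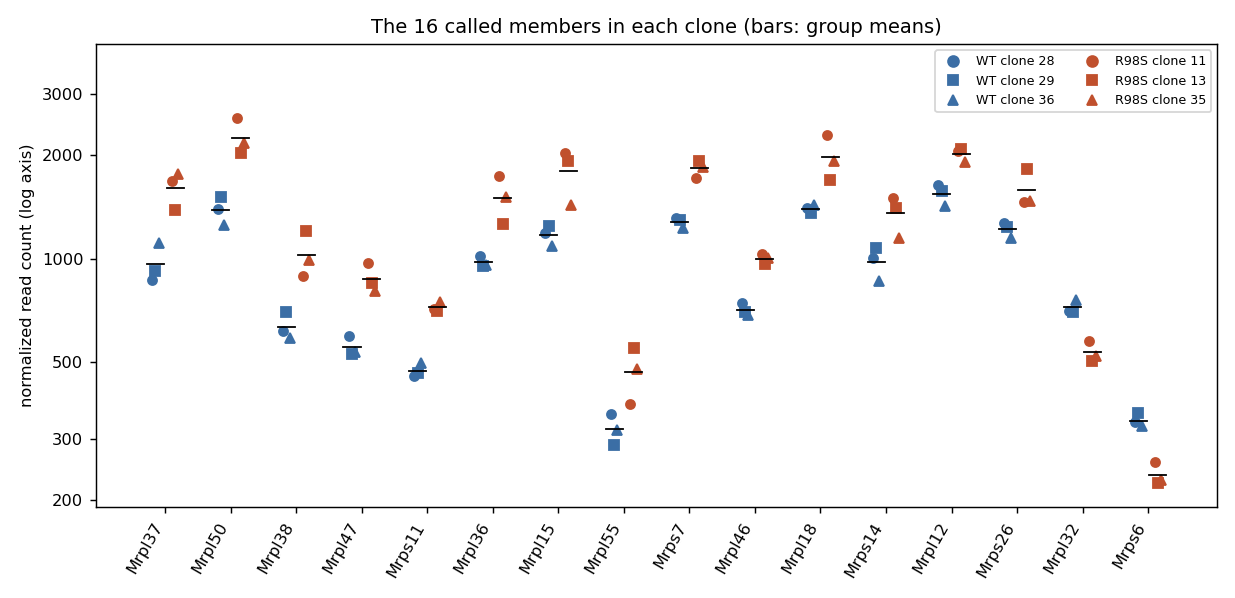
Normalized read count (y axis, log scale) of the 16 called members in each of the 6 clones, WT in blue and R98S in red with 1 marker shape per clone, and horizontal bars at the group means, ordered by fold change from left to right. In all 16 genes the R98S and WT points are separate, and the 2 genes at the right end, Mrpl32 and Mrps6, are the ones with R98S below WT.

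Of the 29 small subunit genes, 4 (13.8%) rose and 1 (3.45%) fell, against 10.7% and 13.1% of all tested genes. The share that rose was near that background, and the median log2 fold change was 0.21. Mrps11, on the platform of the small subunit, had normalized counts of 457, 465 and 499 in WT and 716, 705 and 748 in R98S clones. Both groups were tight and far apart (1.53-fold, log2 0.61, SE 0.12, limma adjusted p = 0.0155). Mrps7, a protein of the small subunit head, was at 1313, 1298 and 1232 in WT and 1719, 1927 and 1847 in R98S clones, again without overlap (1.43-fold, log2 0.51, SE 0.10, limma adjusted p = 0.0167). Mrps14, also in the head, was at 1007, 1074 and 864 in WT and 1504, 1406 and 1150 in R98S clones, and clone 35 came close to the WT range (1.38-fold, log2 0.46, SE 0.14, limma adjusted p = 0.0661). The mitochondria-specific Mrps26 was at 1272, 1239 and 1151 in WT and 1460, 1816 and 1473 in R98S clones, with clone 13 above the others (1.30-fold, log2 0.37, SE 0.12, limma adjusted p = 0.0814).

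Mrps6, a platform protein, showed the largest decrease of any member. Counts were 335, 356 and 327 in WT and 257, 224 and 228 in R98S clones, and the R98S mean was 0.696 times the WT mean (log2 -0.52, SE 0.15, limma adjusted p = 0.048). Its annotated exons share 159 bases on the same strand with Slc5a3, whose own log2 fold change was 0.35 (limma adjusted p = 0.383). They also share 305 bases on the same strand with Gm49711, for which no value was available. Counting by strand would not separate reads in these shared bases. Unlike Mrpl32, Mrps6 kept its value after removal of the shift of its neighbours (log2 -0.47, limma adjusted p = 0.0531).

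Mrps12, the decoding centre protein, lay just outside the threshold. It was at 550, 541 and 563 in WT and 684, 646 and 767 in R98S clones, with no overlap, 1.27-fold apart on average (log2 0.34, SE 0.12, limma adjusted p = 0.104). It was called by edgeR (adjusted p = 0.0872) and DESeq2 (adjusted p = 0.0742). Mammals have 3 Mrps18 paralogs, of which Mrps18b and Mrps18c belong to the small subunit and Mrps18a sits in the large one. Mrps18a (808, 888 and 1085 in WT, 1290, 957 and 1036 in R98S clones) and Mrps18c (870, 976 and 968 in WT, 1066, 937 and 994 in R98S clones) overlapped between groups. Mrps18b was at 453, 412 and 341 in WT and 583, 456 and 506 in R98S clones, which did not overlap. None of the 3 was called by limma, with log2 fold changes of 0.24, 0.36 and 0.09 for a, b and c (limma adjusted p = 0.347, 0.174 and 0.627).

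Mrps30, which despite its name is part of the large subunit, was at 939, 934 and 881 in WT and 985, 1045 and 969 in R98S clones (log2 0.12, limma adjusted p = 0.465). Mrps36 is now known as a component of the oxoglutarate dehydrogenase complex rather than of the ribosome. It was at 358, 366 and 343 in WT and 407, 398 and 434 in R98S clones (log2 0.21, limma adjusted p = 0.301). In both genes the R98S values were above the WT values, by less than the test could separate from error. Of the 60 members not called, 54 had log2 fold changes between 0.01 and 0.36 and 6 between -0.23 and -0.002. Of these 60, 23 had R98S above WT without overlap and 1 below. Over all 11550 tested genes, called ones included, 2092 had R98S above WT without overlap and 2215 below. The share among all genes not called was not computed.

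The mRNAs of both subunits were higher by similar amounts. The mean log2 level of the large subunit genes was 0.23 higher in R98S than in WT clones, and that of the small subunit genes 0.20 higher. The difference between the subunits was 0.40, 0.36 and 0.36 in the WT and 0.40, 0.40 and 0.41 in the R98S clones. Group means were 0.37 ± 0.02 in WT and 0.40 ± 0.01 in R98S clones (SD, n = 3), a difference of 0.03 with a pooled SD of 0.02. The R98S values were all slightly above the WT values, and no test was made of this summary over members. After subtraction of what neighbouring genes did, the difference was -0.01. Counting Mrps18a and Mrps30 as large subunit genes and leaving out Mrps36, 11 of 49 large and 5 of 26 small subunit genes were called, with medians of 0.19 and 0.21. These were 22.45% and 19.2%, against 23.9% of all tested genes. Genes with bacterial counterparts in the small subunit (3 of 16 rose, 1 fell, median 0.19) and mitochondria-specific ones (1 of 9 rose, median 0.25) gave similar values. The shares that rose were 18.75% and 11.1%, against 10.7% of all tested genes.

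**Figure D3:**
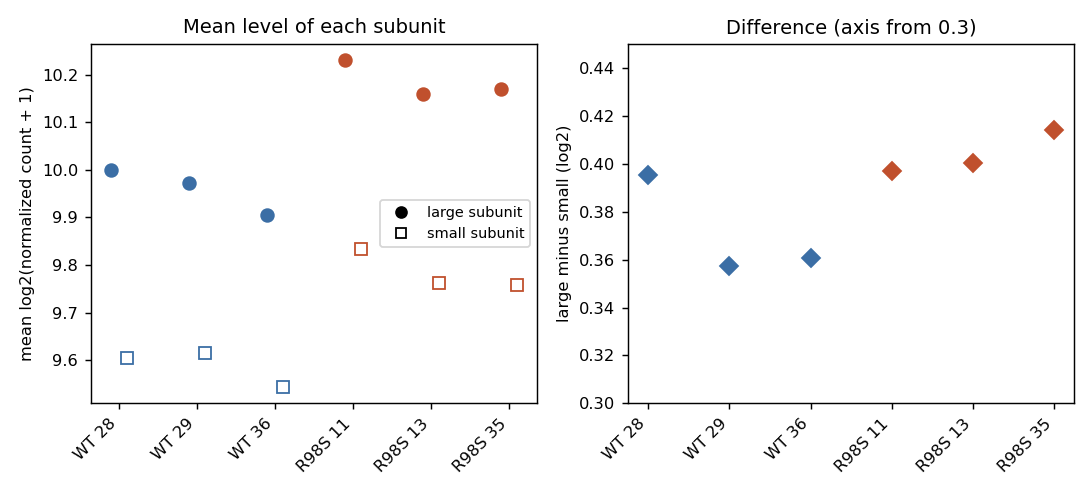
Left, mean log2(normalized read count + 1) (y axis) of the 47 large subunit genes (filled circles) and 29 small subunit genes (open squares) in each of the 6 clones (x axis), WT in blue and R98S in red; right, the difference between both means, on an axis that starts at 0.3. Both subunits are higher in the 3 R98S clones, while the difference stays between 0.36 and 0.41.

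Levels between genes were compared as normalized counts per kilobase of the principal coding transcript in GENCODE, averaged over the 6 libraries. They depend on the transcript chosen, as long annotated ends lower them. The median was 847 per kilobase for the large and 549 for the small subunit genes tested. Mrpl33, a short large subunit protein, was the highest at 2781 per kilobase, followed by Mrps21 at 2644, and the lowest tested member was Mrps25 at 169. Among the named members, Mrpl18 (1380), Mrpl12 (1354) and Mrpl36 (1343) stood in the upper part, and Mrpl47 (213) and Mrpl32 (209) near the bottom. Mrpl16, named after its values were seen, varied most within the groups: its normalized counts were 3400, 2264 and 1952 in WT and 3629, 2168 and 2448 in R98S clones, which gave the widest interval of any member in the plot of fold changes.

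Members were found on 17 chromosomes and called members on 9. The 7 genes called under every setting are, in GRCm38 positions from GENCODE, Mrpl36 (chr13:73328513-73332178, plus strand), Mrpl37 (chr4:107055874-107066868, minus strand), Mrpl38 (chr11:116131817-116138868, minus strand), Mrpl47 (chr3:32725397-32737605, minus strand), Mrpl50 (chr4:49512596-49521093, minus strand), Mrps7 (chr11:115603925-115608036, plus strand) and Mrps11 (chr7:78783119-78792989, plus strand).

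The chromosome on which a member lies went along with which R98S clone was highest. On chromosome 11, R98S clone 13 held the highest value for 10 of 10 members, among them Mrpl12, Mrpl38, Mrpl55 and Mrps7, and for 53.4% of the 977 tested genes there. On chromosome 2, clone 13 was highest for 4 of 4 members, Mrps26 included, and for 52.7% of 933 genes. On chromosome 17, clone 11 was highest for 7 of 8 members, Mrpl18 among them, and for 44.5% of 591 genes. Over all tested genes clones 11, 13 and 35 were highest in 17.6%, 18.8% and 16.5%. The median deviation of all chromosome 11 genes was 0.24 in clone 13, compared with -0.10 in clone 11 and -0.02 in clone 35. The members on chromosome 11 stood higher than that in each R98S clone, with medians of 0.34, 0.003 and 0.07 in clones 13, 11 and 35. On chromosome 3, where all tested genes had a median of -0.26 in clone 35, the 5 members had a median of -0.04 in it. DNA copy number was not measured here, and these chromosome summaries were added after the values were seen.

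**Figure D4:**
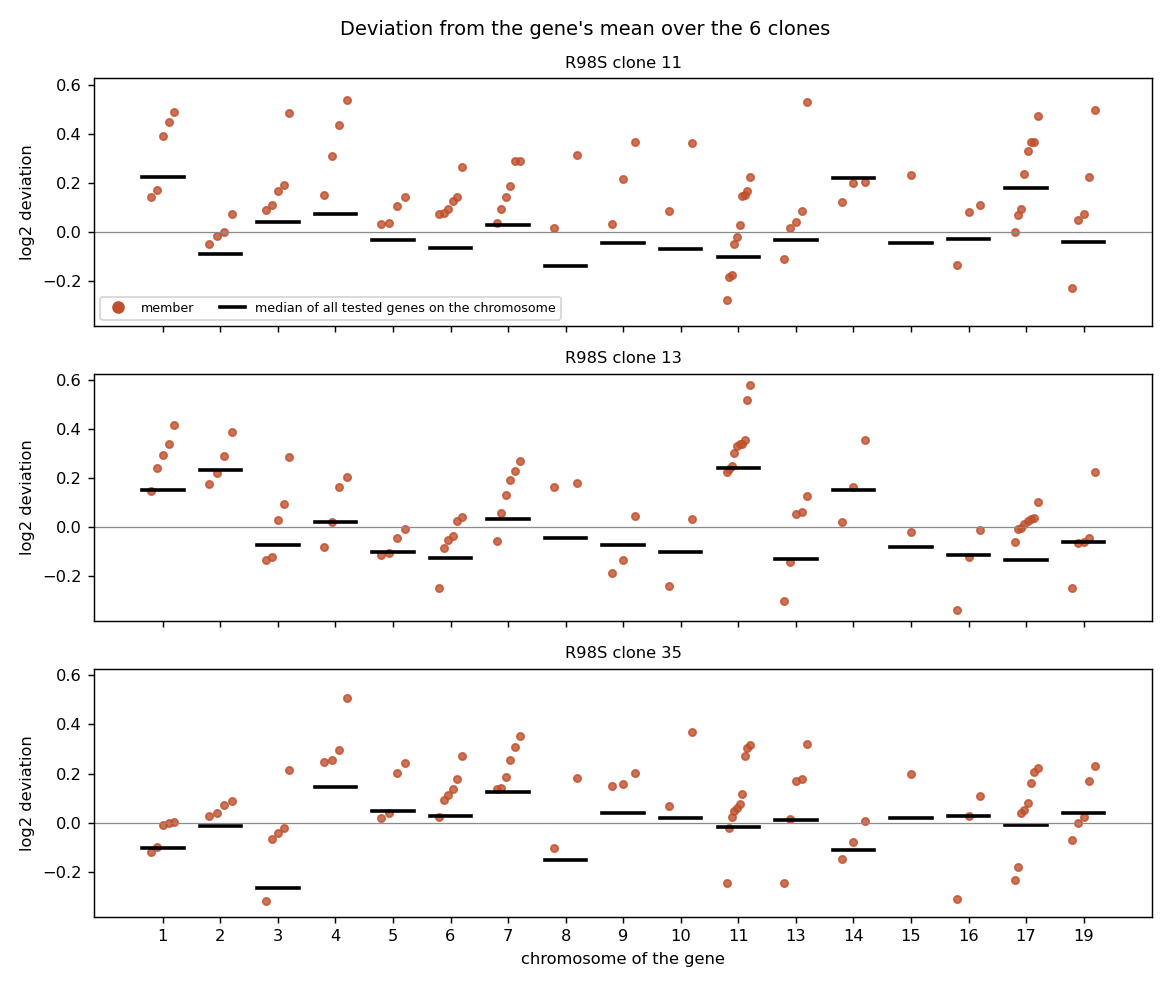
Log2 deviation (y axis) of each tested member (red points) from its own mean over the 6 clones, by chromosome (x axis), in R98S clones 11, 13 and 35 from top to bottom, with black bars at the median of all tested genes on that chromosome. The bars differ between clones, for example 0.24 on chromosome 11 and 0.23 on chromosome 2 in clone 13, and 62, 54 and 61 of the 76 members lie above the bar of their chromosome in clones 11, 13 and 35.

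As a further setting, the median deviation of its 30 closest tested genes was subtracted from each gene in each library. In that fit 24 of 76 members were called by limma, 22 higher and 2 lower, against a background of 25.2%. Of these, 11 were among the 16 called before and 13 were not. The 5 members that lost the call were Mrpl12, Mrpl32, Mrpl46, Mrpl55 and Mrps14. Those that stayed higher were Mrpl15, Mrpl18, Mrpl36, Mrpl37, Mrpl38, Mrpl47, Mrpl50, Mrps7, Mrps11 and Mrps26. A positive log2 fold change was found for 64 of 76 members with a median of 0.20, compared with 68 and 0.21 before the subtraction. The cause of the members' shift was not tested.

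Many mitoribosomal protein genes share a start region with a gene on the opposite strand. A neighbour whose 5′ end lies within 1000 bases was annotated for 33 members, and both genes were tested in 29 distinct pairs, of which 16 had fold changes of the same sign. For 9 called members with a tested neighbour, 5 neighbours were called, all in the same direction as the member. Over all tested genes 23.9% were called. Mrps11 and Mrpl46 are each other's neighbour on chromosome 7, so their pair is counted from both sides. Both were taken as called members, which fixed the result of that pair beforehand. The share called among neighbours of other genes was not computed. Cyb5rl, next to Mrpl37, was at 114, 127 and 203 in WT and 522, 414 and 546 in R98S clones (log2 1.77, limma adjusted p = 0.0044). Psma2, a proteasome subunit gene next to Mrpl32, fell like Mrpl32, from 4390, 4351 and 4358 in WT to 3045, 2762 and 3070 in R98S clones (log2 -0.56, limma adjusted p = 0.00923). With the regional shift removed Psma2 was at -0.12 (limma adjusted p = 0.401), whereas Cyb5rl kept its call (log2 1.49, limma adjusted p = 0.00343). Ndufb5, a complex I subunit gene beside Mrpl47, rose as well (log2 0.41, limma adjusted p = 0.0457). The neighbours of Mrpl18 (Tcp1, 0.15), Mrpl36 (Ndufs6, 0.20), Mrpl50 (Zfp189, -0.15) and Mrps7 (Gga3, -0.03) were not called. The difference between a member and its neighbour was not tested. The pairs were examined after the fold changes had been seen.

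The start regions of the 3 pairs in which both genes were called in the same direction and start within 1 window are given here because both genes of a pair start in them. Each is the RefSeq window of GRCm38.p6 from 250 bases before to 50 bases after the start of the named member, read 5′ to 3′ on its strand. Capitals mark matches, on either strand, to short cores of motifs known from promoters of housekeeping and mitochondrial genes: NRF1 GCGCATGC, ETS CCGGAAG, Sp1 GGGCGG, E-box CACGTG, the CCAAT box, YY1 AAGATGGC and ZNF143 ACTACAATT.
Mrps11 (chr7:78782881-78783180, plus strand; RefSeq start of Mrpl46 at base 209): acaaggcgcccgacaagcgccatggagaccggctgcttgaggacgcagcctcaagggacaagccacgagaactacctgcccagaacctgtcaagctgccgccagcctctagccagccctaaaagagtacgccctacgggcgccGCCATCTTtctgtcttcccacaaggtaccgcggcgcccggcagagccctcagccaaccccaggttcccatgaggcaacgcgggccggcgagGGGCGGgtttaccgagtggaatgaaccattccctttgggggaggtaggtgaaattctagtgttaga
Mrpl37 (chr4:107066817-107067116, minus strand; RefSeq start of Cyb5rl at base 123): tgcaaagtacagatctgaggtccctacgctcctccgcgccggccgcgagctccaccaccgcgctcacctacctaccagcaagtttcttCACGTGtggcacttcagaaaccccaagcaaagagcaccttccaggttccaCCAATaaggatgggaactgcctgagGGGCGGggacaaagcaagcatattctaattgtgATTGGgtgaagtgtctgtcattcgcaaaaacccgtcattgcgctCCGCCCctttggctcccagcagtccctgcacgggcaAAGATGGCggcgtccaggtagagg
Mrpl32 (chr13:14612988-14613287, minus strand; RefSeq start of Psma2 at base 46): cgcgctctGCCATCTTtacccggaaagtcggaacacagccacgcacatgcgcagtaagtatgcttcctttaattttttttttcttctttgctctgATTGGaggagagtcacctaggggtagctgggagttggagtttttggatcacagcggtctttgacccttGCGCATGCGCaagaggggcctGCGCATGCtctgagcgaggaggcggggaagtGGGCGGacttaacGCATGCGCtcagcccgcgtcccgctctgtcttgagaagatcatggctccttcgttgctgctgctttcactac

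In these windows the Mrps11 start region held 1 Sp1 core and 1 YY1 core. That of Mrpl37 held an E-box, 2 CCAAT boxes, 2 Sp1 cores and a YY1 core. The window of Mrpl32, the gene that fell, held 4 matches to the NRF1 core, of which 2 overlap, in addition to 1 match each to Sp1, the CCAAT box and YY1. RefSeq windows were found for 68 members, including 14 of the 16 called, and made 74 windows. The YY1 core was in 16.2% of the member windows, against 4.66% of the windows of tested genes and 2.75% of all 32851 windows. ETS cores were in 33.8% of the member windows against 18.7% and 8.86%, and NRF1 cores in 10.8% against 5.50% and 2.71%. Sp1 cores were in 52.7% against 62.0% and 35.7%, the CCAAT box in 40.5% against 38.1% and 37.4%, the E-box in 9.46% against 9.84% and 7.15%, and the ZNF143 core in 0 of 74 member windows against 0.828% and 0.393%. Windows of the members that rose held the NRF1 core in 0 of 12, the ETS core in 2 of 12 and the YY1 core in 4 of 12, and those of members not called in 7, 22 and 7 of 59. These shares describe letters in a fixed window, and binding was not measured.

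Members that share exon sequence with another gene carry an extra uncertainty, since it is not given in the sources used here whether the strand-specific reads were counted by strand. Mrpl47 shares 452 bases with Actl6a and 616 bases with Ndufb5 on the opposite strand, and both neighbours were called higher (log2 0.46 and 0.41). Mrps11 and Mrpl46 share 173 bases with each other. Mrpl18 shares 141 bases with Tcp1, whose mean normalized count of 12070 was far above that of Mrpl18 (1683), and Mrps7 shares 119 bases with Mif4gd, which was called higher (log2 0.53). For these members, reads in the shared bases cannot be assigned to the member or to its partner if strand was not used.

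Among 6 mitoribosomal proteins with other symbols, the median log2 fold change was 0.16 and 1 gene (16.7%) rose, against 10.7% of all tested genes. This gene was Chchd1. It was at 1192, 1144 and 1078 in WT and 2071, 1573 and 1428 in R98S clones (log2 0.55, SE 0.15, limma adjusted p = 0.0442). Its call was lost without R98S clone 11 or WT clone 28 or 29 (limma adjusted p = 0.1, 0.1105 and 0.1136). Dap3, a GTP-binding small subunit protein, was at 3213, 3430 and 3158 in WT and 2976, 3201 and 2155 in R98S clones (log2 -0.25, limma adjusted p = 0.293). Ict1, the former name of Mrpl58, encodes a peptidyl-tRNA hydrolase built into the large subunit. It was at 473, 483 and 431 in WT and 441, 606 and 462 in R98S clones (log2 0.11, limma adjusted p = 0.679). Both overlapped between the groups.

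Of 23 tested genes for assembly of the mitoribosome, modification of its RNA and quality control, 7 (30.4%) rose and 2 (8.70%) fell. Over all tested genes 10.7% rose and 13.1% fell. The median of the list was 0.09. Fastkd2, an RNA-binding protein needed for the large ribosomal RNA, showed the greatest change, from 801, 807 and 816 in WT to 2216, 1367 and 1433 in R98S clones (log2 1.01, SE 0.18, limma adjusted p = 0.0126). The ribosomal RNA methyltransferases Rnmtl1 (log2 0.76), Nsun4 (0.62) and Ftsj2 (0.50) and the GTPases Mtg2 (0.57) and Noa1 (0.40) rose as well, as did Ngrn (0.36). Nsun4 and Ngrn lost the call with the shift of neighbouring genes removed (log2 0.24 and 0.10, limma adjusted p = 0.346 and 0.431). The calls of Ftsj2, Noa1 and Ngrn were each lost when any of 5 clones was left out, all but R98S clone 13. Nsun4 also lost the call without WT clone 28, and Mtg2 without WT clone 29 (limma adjusted p = 0.1155 and 0.1149). Rbfa, which acts in small subunit maturation, fell from 556, 617 and 521 to 347, 413 and 352 (log2 -0.61, SE 0.14, limma adjusted p = 0.0281), and lost the call without WT clone 28 or 29 (limma adjusted p = 0.102 and 0.11). Rbfa and Afg3l2 lie on the same chromosome, on which the median over tested genes was -0.15 (log2).

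Of 16 mitochondrial translation factors and partners, 3 (18.75%) rose and none fell, with a median of 0.17. Over all tested genes 10.7% rose and 13.1% fell. Tufm, the elongation factor that delivers aminoacyl-tRNA, was at 687, 715 and 647 in WT and 1042, 1003 and 1086 in R98S clones (log2 0.61, SE 0.11, limma adjusted p = 0.0127). Mtrf1, a release factor family member, was at 198, 195 and 193 in WT and 362, 339 and 328 in R98S clones (log2 0.81, limma adjusted p = 0.0116). Taco1, an activator of translation of the mitochondrial mRNA mt-Co1, was at 260, 248 and 238 in WT and 448, 406 and 400 in R98S clones (log2 0.75, limma adjusted p = 0.0136). In all 3 the clones of each group were tight and the groups apart. Oxa1l, which inserts the products into the inner membrane, was at 1462, 1451 and 1650 in WT and 1596, 1843 and 1323 in R98S clones (log2 0.05, limma adjusted p = 0.835).

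Of 10 genes for transcription and maintenance of mitochondrial DNA, 2 rose: Peo1, the helicase Twinkle (log2 0.64, limma adjusted p = 0.0242), and Tefm, the transcription elongation factor (log2 0.42, limma adjusted p = 0.0882). The call of Tefm was lost when any 1 clone was left out. Of the 10 genes 20% rose, against 10.7% of all tested genes. The RNA polymerase Polrmt was at 432, 461 and 438 in WT and 538, 456 and 528 in R98S clones (log2 0.19, limma adjusted p = 0.364), and Tfam, which packages the genome, at 1596, 1647 and 1651 and 1537, 1478 and 1725 (log2 -0.05, limma adjusted p = 0.78). Among 9 tested regulators of mitochondrial biogenesis, such as Nrf1, Gabpa and Pprc1, limma called 0, edgeR 0 and DESeq2 1, with 2 at an unadjusted p under 0.05 and a median of -0.02. With the regional shift removed limma called 2 of them higher, Nrf1 (log2 0.26) and Pprc1 (log2 0.43), and the median was 0.10. Of all tested genes limma called 23.9% before and 25.2% after that removal.

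The mRNAs translated by the mitoribosome were themselves measured in part. Of 13 mitochondrial mRNAs 10 were tested, 5 (50%) rose, against 10.7% of all tested genes, and the median was 0.71. The calls of mt-Nd2 and mt-Nd5 were each lost when any clone but R98S clone 13 was left out (limma adjusted p up to 0.159 and 0.235), that of mt-Nd4 without R98S clone 11 (0.103) and that of mt-Cytb without WT clone 28 (0.106), while mt-Atp8 kept its call. The complex I subunit mt-Nd2 was at 18217, 22859 and 20836 in WT and 68310, 24638 and 52608 in R98S clones (log2 1.12, SE 0.33, limma adjusted p = 0.0567). Clones 11 and 35 were far above WT and clone 13 close to it. The same order was seen for mt-Nd4 (39459, 19379 and 35818 in clones 11, 13 and 35, against 14115 to 15586 in WT) and mt-Nd5 (63856, 28012 and 61476, against 23604 to 28964), in which clone 13 overlapped WT. For mt-Cytb and mt-Atp8 all R98S clones were above WT (log2 0.74 and 0.82). By contrast, mt-Co1, the most abundant at 139196, 159004 and 143165 in WT, was at 152156, 125234 and 115912 in R98S clones (log2 -0.17, limma adjusted p = 0.492). Clone 13 thus resembled WT in several mitochondrial mRNAs, while its average deviation over the 76 nuclear mitoribosomal genes (0.08) was near that of clone 35 (0.09). Counts of mt-Co2, mt-Co3, mt-Nd4l, mt-Nd3 and mt-Atp6 were at or below 39.4 in every library. Why these counts were low was not tested. Of these genes, mt-Nd3 (mean 19.6, log2 0.69) and mt-Atp6 (mean 19.4, log2 0.09) were among the 10 tested and entered the median of 0.71. Neither was called, and no other change was read from these low counts. The annotated positions of mt-Atp8 (bases 7766 to 7969) and mt-Atp6 (bases 7927 to 8607) overlap on the same strand. Their counts were far apart, with WT and R98S means of 9209 and 16451 for mt-Atp8 and 17.2 and 21.6 for mt-Atp6. How well the count of mt-Atp8 follows the level of its mRNA was not tested.

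Which members were called depended on the clones included. Mrpl36, Mrpl37, Mrpl38, Mrpl47, Mrpl50, Mrps7 and Mrps11 were called in all 17 alternatives. When WT clone 28, 29 or 36 was left out, 8, 9 or 12 members were called (10.5%, 11.8% and 15.8% of 76), against 11.5%, 12.6% and 21.8% of all tested genes in the same fits. When R98S clone 11, 13 or 35 was left out, the number was 11, 20 or 14 (14.5%, 26.3% and 18.4%), against 13.7%, 27.9% and 17.4%. The shares of called members were thus near those over all tested genes, except without WT clone 36, where the members fell further below. With all 6 clones the shares were 21.1% and 23.9%. The calls of Mrps14, Mrps26 and Mrpl55 were each lost when any of at least 5 of the 6 clones was left out, and those of Mrpl32 and Mrps6 when WT clones 28 or 29 or R98S clone 35 were dropped. Mrpl32 also lost it without WT clone 36 (limma adjusted p = 0.101). Mrpl12 and Mrpl18 lost the call without WT clone 28 or 29 or R98S clone 11, with limma adjusted p-values of 0.111 to 0.130, and Mrpl15 without WT clone 28 or R98S clone 11 (0.104 and 0.112). The number of members with a positive fold change varied less, from 64 to 69 of 76 when 1 clone was left out.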

How the data were processed

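Polyadenylated RNA of 3 WT and 3 R98S RPL10 Ba/F3 clones was sequenced with a strand-specific kit. The authors removed rRNA and tRNA reads with Bowtie2, aligned the rest to mm10 (GRCm38) with TopHat and counted reads on exons; SAMtools and HTSeq are also named in the submitters' processing notes, whose versions are not given in the sources used here. The deposited signal is a normalized read count per gene, that is, the authors' counts divided by the DESeq2 size factor of each library. In every library 100% of values were whole multiples of 1 step, so whole reads were recovered.

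Normalized counts were raised by 1 and log2-transformed, and genes with a mean of at least 10 entered limma 3.58.1 (in R 4.3.3) with a trend on intensity. The test was two-sided, with Benjamini-Hochberg adjustment and a threshold of 0.1. Fold changes on this scale understate those of low genes. edgeR 4.0.16 called 2746 genes and DESeq2 1.42.0 called 3105 on the recovered reads. Scripts were tested on simulated data. The alternatives were other pseudocounts, filters, scalings and thresholds, no trend, each clone left out, and subtraction of the median deviation of the 30 nearest tested genes. Positions and lengths came from GENCODE vM21, in which all 77 members matched, and promoters from RefSeq (GRCm38.p6).

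Named were all called members, Mrps30, Mrps18a, Mrps18b, Mrps18c, Mrps36, Mrps12, Mrpl12, Mrpl32 and Mrpl58 whatever their values, and from other lists called genes plus Dap3, Oxa1l, Tufm, Tfam and Polrmt. The members and lists were chosen with earlier results of these data known. Replicates are separate clones, so p-values measure the spread between clones. Replicates of a group differed by far more than counting noise (chi-square per degree of freedom at least 18.7). The level of 1 marker gene of the cell line is not reported here.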

Additional observations from a re-analysis of the deposited data

How the results depend on the processing

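No paired analysis was possible because the clone numbers differ between WT and R98S. The count of 16 called members ranged from 8 to 20 when 1 clone was left out, while 11.5% to 27.9% of all tested genes were called in the same fits, that of members called higher from 8 to 18, that of members called lower from 0 to 2, that of large subunit genes from 6 to 14 and that of small subunit genes from 2 to 6. With the shift of the nearest genes removed, 22 members were called higher and 11 small subunit genes were called. Small subunit genes called numbered 3 at an adjusted p under 0.05, 3 with no filter on low values and 3 with no intensity trend. The R98S minus WT difference between subunits (0.03) was 0.00306 with no filter, which adds Mrpl53, and -0.0142 with the regional shift removed. That setting also turned the log2 fold change of Mrpl32 to 0.0213, Ict1 to -0.0903, Oxa1l to -0.206 and Tfam to 0.166. With 1 clone left out, Ict1 ranged from -0.0334 to 0.196 and Oxa1l from -0.0635 to 0.176, both lowest without R98S clone 13. Of 374 alternative values of the named members, 322 kept direction and side of the threshold, 43 lost and 8 gained the call, and 1 changed sign. Most of these members were among the 16 called, which could lose the call but not gain it. With the regional shift removed, 13 members gained the call, most of them outside this tally. The cause of these changes was not tested. With 3 clones a group, the median standard error of 0.13 limits the log2 differences that can be called.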
